A study of Mus musculus with 4 samples.

Results

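The genes described here were 6 markers and regulators of primed pluripotency, the state of the epiblast after implantation: the growth factor gene Fgf5 and the transcription factor genes Otx2, Pou3f1, Zic2, Zic5 and Sall2. They were taken by symbol from a table of 15429 genes, in which each had 1 row, and all 6 were among the 12403 genes tested, those whose mean over the libraries reached 1 FPKM. FPKM is the number of sequenced fragments scaled to gene length and to the depth of the library. The cells were OE7, a mouse epiblast stem cell line derived after implantation that carries an Oct4-GFP reporter transgene, at passages 21 to 25. All were grown on fibronectin with Activin A at 20 ng/ml and Fgf2 at 12 ng/ml. They were transfected in 6-well plates with 1000 ng of esiRNA and 2 µl of Lipofectamine 2000. An esiRNA is a pool of short interfering RNAs cut by enzyme from long double-stranded RNA. The control group received Luc esiRNA (n = 2 libraries) and the other group Tox4 esiRNA (n = 2), which targets the HMG-box protein gene Tox4, and polyadenylated RNA was sequenced from both. The comparison asked whether transcripts of the primed state differed after Tox4 knockdown in a study of Oct4 regulation.

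Epiblast stem cells are held in the primed state by Activin and FGF signalling. On leaving the naive state of the earlier embryo, cells switch on Fgf5, a secreted ligand long used to mark the egg cylinder epiblast, together with Otx2, a homeodomain factor that directs Oct4 to new enhancers. Pou3f1, also known as Oct6, is a POU factor related to Oct4, Zic2 and Zic5 are zinc finger factors, and Sall2 is a zinc finger factor of the spalt family that contains Sall4. Several of these genes are also used later, since Otx2, Pou3f1, Zic2 and Zic5 take part in patterning the anterior neural plate.

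Tox4 itself was at 16.7 and 17.5 FPKM in Luc replicates 1 and 2 and at 8.65 and 8.89 FPKM in Tox4 replicates 1 and 2 (ratio 0.512), so that part of its message remained. Reads assigned to the 15429 genes, as worked back from FPKM, came to 12778044 to 19008803 per library. The library depths implied by the scaling were 13076406 to 19453857. Of all tested genes, 234 were higher and 325 lower with Tox4 esiRNA (limma, adjusted p under 0.05), that is 1.89% and 2.62%. These counts were 27 and 34 without Luc replicate 1, 28 and 35 without Luc replicate 2, and 141 and 296 without Tox4 replicate 2. Nothing in the labels tells whether replicate libraries were grown as separate cultures, and the tests take account only of the spread between the libraries, possibly a technical one.

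Markers of epiblast stem cells were far more abundant than those of other cell types. All 7 epiblast stem cell markers were tested, and their summed level was 1210 to 1245 FPKM over the 4 libraries. They were Pou5f1, Sox2, Nanog, Lin28a, Dnmt3b, Fgf5 and Otx2, the last 2 being among the genes described here. Pou5f1, which encodes Oct4, was alone at 582 to 613 FPKM. Since Pou5f1, Sox2, Nanog and Lin28a are core pluripotency genes, this sum does not tell primed from naive cells. The 4 measured markers of naive embryonic stem cells (of 6 listed) summed to 5.72 to 7.54 FPKM, with 3 of them under 1.5 FPKM in every library, and the 6 measured fibroblast markers to 10.8 to 12.7 FPKM. These sums depend on the choice of markers: a longer naive list, with Klf5 and Gbx2 among its 10 measured genes, summed to 26.3 to 27.5 FPKM, and a longer fibroblast list, with Fn1 and Pdgfrb among its 9, to 37.6 to 40.2 FPKM. The 2 measured markers of extraembryonic endoderm summed to 1.11 to 2.13 FPKM, and the 2 of trophoblast to 8.56 to 11.7 FPKM, nearly all of it the keratin gene Krt7. The 4 measured neural progenitor markers of this set summed to 11.7 FPKM in each Luc library and to 22.4 and 25.2 FPKM in the Tox4 libraries. The difference came through Sox1 and Fabp7, while Pax6 and Hes5 stayed under 1.5 FPKM. This sum too depends on the choice of markers. A longer neural list of 13 measured genes summed to 198 FPKM in each Luc library and to 235 and 230 FPKM in the Tox4 libraries. Nes, a gene of that list, was at 52.7 and 51.5 against 49.9 and 49.8 FPKM.

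Sall2 was the 1 of the 6 genes that passed the test, and it rose by 19.9% with Tox4 esiRNA. The other 5 did not pass, with Zic2 and Zic5 at small positive and Fgf5, Otx2 and Pou3f1 at small negative log2 fold changes. The median of the 6 was 0.01 on the log2(FPKM + 1) scale, against -0.0034 over all tested genes, and the median size without sign was 0.10 against 0.08. A rise was called for 1 of 6 genes, against 1.89% of all tested genes, and a fall for 0 of 6, against 2.62%, or 4.51% for both directions together. Counted by limma at an unadjusted p under 0.05, there were 2 of 6, against 21.6% of all tested genes. The Luc and Tox4 values did not overlap in 5 of the 6, against 52.0% of all tested genes. In bulk RNA such as this, a change in the number of cells with a transcript cannot be told apart from a change of its level per cell.

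**Figure D1:**
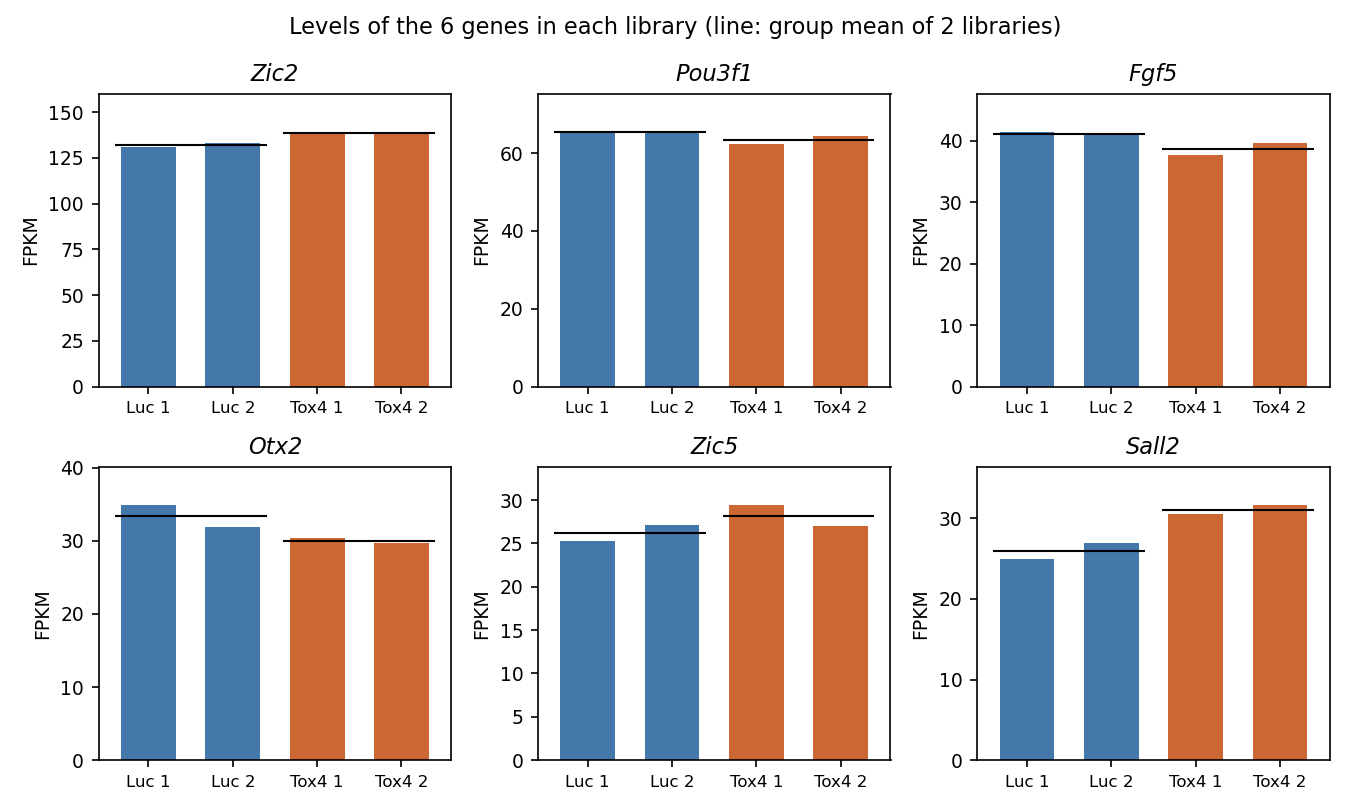
Level of each of the 6 genes in FPKM (vertical axes, from 0) in the 4 libraries (blue bars, Luc esiRNA; orange bars, Tox4 esiRNA), with a line at the mean of each group. Sall2 is at 25.0 and 26.9 FPKM in the Luc and 30.6 and 31.6 FPKM in the Tox4 libraries, and Otx2 runs from 34.8 FPKM in Luc replicate 1 to 29.7 FPKM in Tox4 replicate 2.

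Sall2 (ENSMUSG00000049532) lies on the minus strand of chromosome 14 from 52311172 to 52328762 (GRCm38). It has 2 starts in the RefSeq annotation, 12347 bases apart, whose first exons give proteins with different N-termini. The windows around both starts, from 250 bases before to 50 after, are shown because this is the gene that passed the test and the windows differ in composition. They are read 5′ to 3′ on the minus strand of build GRCm38.p6, at chr14:52328621-52328920 for the upstream start and chr14:52316274-52316573 for the downstream start, with CG dinucleotides in capitals.
Sall2 upstream start: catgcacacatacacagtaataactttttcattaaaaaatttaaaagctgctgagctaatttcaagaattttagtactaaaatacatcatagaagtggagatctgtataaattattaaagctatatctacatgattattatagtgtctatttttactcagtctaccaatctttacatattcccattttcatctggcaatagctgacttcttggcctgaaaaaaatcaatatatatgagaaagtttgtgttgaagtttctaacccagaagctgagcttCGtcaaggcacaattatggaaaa
Sall2 downstream start: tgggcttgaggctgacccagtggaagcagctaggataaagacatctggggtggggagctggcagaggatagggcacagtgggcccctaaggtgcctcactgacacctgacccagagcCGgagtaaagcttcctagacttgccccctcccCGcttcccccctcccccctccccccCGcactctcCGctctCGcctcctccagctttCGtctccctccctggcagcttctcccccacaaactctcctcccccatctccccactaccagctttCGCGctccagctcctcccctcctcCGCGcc
The upstream window holds 1 CG dinucleotide at a GC content of 30.3%, and the downstream window 10 at 65.0%. Over all 32544 different promoter windows of the RefSeq table the median was 7 CG dinucleotides and 53.0% GC. The FPKM value is summed over the gene, so transcripts from the 2 starts were not separated.

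Sall2 was at 25.0 and 26.9 FPKM in Luc replicates 1 and 2 and at 30.6 and 31.6 FPKM in Tox4 replicates 1 and 2. The read numbers behind these were 2318, 1967, 2197 and 1971. Both Tox4 libraries lay above both Luc libraries. The means were 25.9 ± 1.33 and 31.1 ± 0.755 FPKM (SD, n = 2 each), which gave 0.25 as the log2 fold change (limma adjusted p = 0.0488, SE 0.05, 95% interval 0.13 to 0.37). The call was close to the threshold and was lost when any 1 library was left out (adjusted p = 0.228 and 0.116 without Luc replicates 1 and 2, 0.0682 and 0.104 without Tox4 replicates 1 and 2, limma), with fold changes of 0.20 to 0.30. Of the neural progenitor markers, Sox1 and Fabp7 were higher too, as given above, while Pax6 and Hes5 stayed under 1.5 FPKM. Nes, of the longer neural list, was at -0.06 and did not pass. Whether neural cells had a part in the rise of Sall2 was not tested.

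The relatives of Sall2 gave a mixed picture. Sall4, the family member with the highest level and a partner of Oct4, was at 41.5 and 42.6 FPKM with Luc esiRNA and at 43.3 and 43.0 FPKM with Tox4 esiRNA, a log2 difference of 0.04 (limma adjusted p = 0.615). Sall1 was at 10.2 and 10.5 against 13.0 and 11.8 FPKM, with a log2 fold change of 0.24 that did not pass (SE 0.06, adjusted p = 0.0926). Sall3 was below the filter, at no more than 1.10 FPKM in any library. The ratio of Sall2 to Sall4 within a library, which no scaling of the library can change, was 0.603 and 0.631 in the Luc libraries and 0.706 and 0.736 in the Tox4 libraries.

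Sall2 is also a neighbour of the targeted gene. Tox4 runs on the plus strand from 52279146 to 52296401, and its end lies 14771 bases from the nearest end of Sall2, with Mettl3, an RNA methyltransferase gene, between them. Of the 5 tested genes within 100 kb of Tox4, Sall2 was the 1 that rose and 0 fell, against 1.89% and 2.62% of all tested genes. These neighbours were chosen with their values known, so the count adds nothing to the call of Sall2. Whether its place near Tox4 had a part in its rise was not tested. Mettl3 was at 9.07 and 8.57 FPKM with Luc esiRNA and at 10.3 and 9.98 FPKM with Tox4 esiRNA, a log2 difference of 0.18 (limma adjusted p = 0.139). Its exons share 933 bases with those of Tox4 on the opposite strand, and exons of Rab2b share 195 bases with Tox4 likewise. Reads in either stretch cannot be assigned if strand was not used in counting. Rab2b, Chd8 and Supt16 were at -0.09, 0.11 and 0.02 on the log2(FPKM + 1) scale and did not pass. Exons of Sall2 overlap those of no other gene in the annotation.

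**Figure D2:**
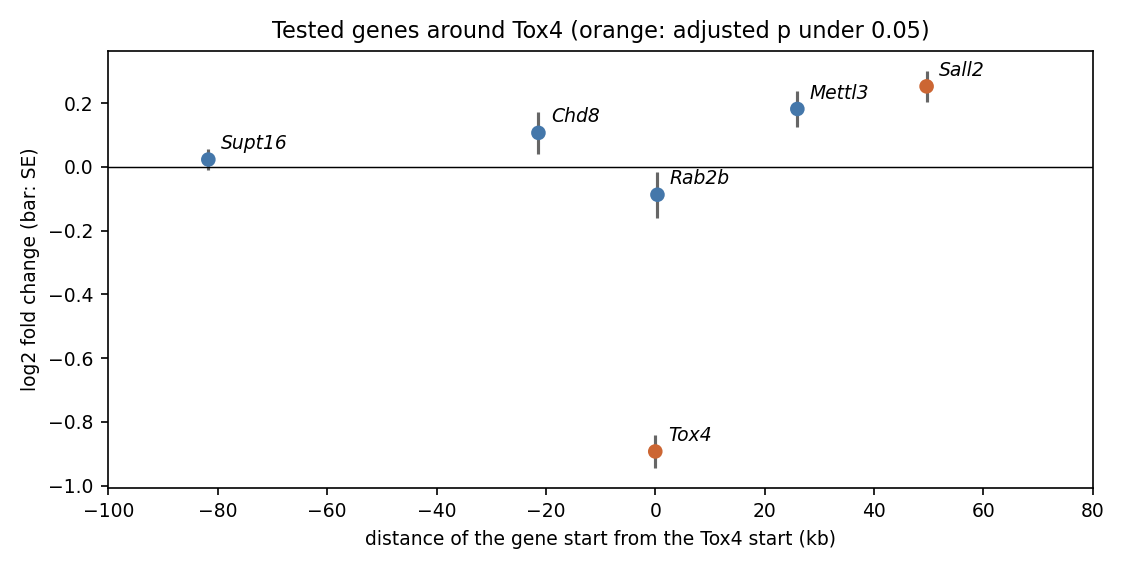
Log2 fold change on log2(FPKM + 1) with its SE (vertical axis) of the tested genes around Tox4, by the distance of their start from that of Tox4 in kb (horizontal axis); orange points have an adjusted p under 0.05. Tox4 is at -0.89 and Sall2 at 0.25, and Supt16, Chd8, Rab2b and Mettl3 lie between -0.09 and 0.18.

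Fgf5 (ENSMUSG00000029337, chromosome 5, 98254184 to 98277030, plus strand), the ligand among the 6 genes, did not pass the test. It was at 41.5 and 40.9 FPKM in Luc replicates 1 and 2 and at 37.6 and 39.6 FPKM in Tox4 replicates 1 and 2. Both Tox4 libraries lay below both Luc libraries, by less than the distance between the 2 Tox4 libraries. Its log2 fold change was -0.09 (limma adjusted p = 0.270, SE 0.04, 95% interval -0.19 to 0.01). The window around its only start in the RefSeq table, chr5:98253934-98254233 on the plus strand of GRCm38.p6, is shown with CG dinucleotides in capitals as a contrast to the upstream window of Sall2. It holds 29 of them at a GC content of 68.3%.
Fgf5 start: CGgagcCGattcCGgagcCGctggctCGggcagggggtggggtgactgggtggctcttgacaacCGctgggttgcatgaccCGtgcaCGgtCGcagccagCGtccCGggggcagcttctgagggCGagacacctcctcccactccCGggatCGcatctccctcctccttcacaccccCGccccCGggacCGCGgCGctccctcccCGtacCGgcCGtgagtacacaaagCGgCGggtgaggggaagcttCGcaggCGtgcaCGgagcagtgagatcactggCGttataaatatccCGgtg

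Among the genes of the FGF family, 1 rose and 0 fell of the 11 tested (Fgf5 included), and 10 did not pass. Of all tested genes, 1.89% were called higher and 2.62% lower. Fgf11, Fgf13 and Fgf14 of this family encode intracellular proteins and not secreted ligands. Fgf15 rose from 16.7 and 17.4 FPKM to 20.3 and 21.2 FPKM (log2 fold change 0.27, SE 0.05, limma adjusted p = 0.0406), a call that was lost when any 1 library was dropped (adjusted p up to 0.211). Fgf8, a ligand of the primitive streak, was the most abundant at 66.8 and 63.5 against 60.2 and 64.2 FPKM (-0.07). Fgf4, the ligand of the inner cell mass, was low at 2.05 and 1.52 against 1.08 and 1.11 FPKM, and its log2 fold change of -0.40 did not pass (adjusted p = 0.162). The ratio of Fgf5 to Fgf8 within a library ranged from 0.617 to 0.644, with the Luc values of 0.621 and 0.644 on both sides of the Tox4 value of 0.625. The receptor gene Fgfr1 rose from 43.4 and 44.4 FPKM to 49.6 and 51.4 FPKM (0.20, adjusted p = 0.0487), which was lost when any 1 library was dropped (adjusted p up to 0.247), and the other 2 tested receptor genes, Fgfr2 (0.43) and Fgfrl1 (-0.05), did not pass.

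Otx2 (ENSMUSG00000021848, chromosome 14, 48657677 to 48673819, minus strand) had the most negative fold change of the 6 genes without passing the test. It was at 34.8 and 31.8 FPKM in Luc replicates 1 and 2 and at 30.4 and 29.7 FPKM in Tox4 replicates 1 and 2. The Tox4 libraries lay below the Luc libraries, but Luc replicate 1 stood apart from the other 3. Its log2 fold change was -0.15 (limma adjusted p = 0.187, SE 0.05, 95% interval -0.27 to -0.02), and -0.08 without Luc replicate 1. Exons of Otx2 share 168 bases with those of Gm49154, an unclassified gene model on the same strand, and 154 bases with those of the noncoding gene Otx2os1 on the opposite strand. Its relative Otx1, a gene of the developing forebrain, was at most at 0.518 FPKM in any library and was listed at 0 in 2 of the 4.

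The RefSeq table gives Otx2 4 starts. Of the 8 windows for 4 members (Fgf5, Otx2, Sall2 and Zic5, with Pou3f1 and Zic2 not used here), a search of both strands found TAATCC, the core of the sequence that homeodomain factors of the Otx type bind, in 1, and it stands in a window of Otx2 itself. That window, of start 3 counted from the most upstream, is shown for this match, at chr14:48665060-48665359 on the minus strand, with the match in capitals as its reverse complement, beginning 211 bases before the start.
Otx2 start 3: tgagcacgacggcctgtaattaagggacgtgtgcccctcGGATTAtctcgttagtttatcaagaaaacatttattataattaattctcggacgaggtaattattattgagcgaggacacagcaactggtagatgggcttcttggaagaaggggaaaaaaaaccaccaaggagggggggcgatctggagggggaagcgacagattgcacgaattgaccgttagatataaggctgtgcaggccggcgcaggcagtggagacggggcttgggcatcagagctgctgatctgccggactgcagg
Of all 32544 windows, 7.06% hold TAATCC on either strand. The octamer ATGCAAAT of POU factors and CAGCAGG, a core of the sequence bound by Zic factors, were in 0 of the 8 windows, against 1.75% and 10.5% of all windows. TATAAA, the letters of a TATA box, was in 3 of the 8, against 13.6%, beginning 34 bases after the start in Fgf5, 192 bases before it in Otx2 (start 1) and 145 bases before it in Sall2 (start 1). The 8 windows are not separate promoters, since 4 are of Otx2 and those of its starts 1 and 2 overlap. These shares are therefore no test of an excess. A match of letters in a window is a description and not a binding site.

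Pou3f1 (ENSMUSG00000090125, chromosome 4, 124656807 to 124660655, plus strand), a gene of a single exon, was at 65.5 and 65.2 FPKM in Luc replicates 1 and 2 and at 62.2 and 64.5 FPKM in Tox4 replicates 1 and 2. The Luc libraries were nearly equal, and Tox4 replicate 2 lay closer to them than to Tox4 replicate 1. This gave a log2 fold change of -0.04 (limma adjusted p = 0.533, SE 0.04, 95% interval -0.13 to 0.04). An antisense gene, Gm2164, shares 330 bases of exon with it on the opposite strand. Within the POU family, 0 of 7 tested genes passed in either direction, against 4.51% of all tested genes. Pou5f1, which encodes Oct4, was at 588 and 582 against 583 and 613 FPKM, and the ratio of Pou3f1 to Pou5f1 was 0.111 and 0.112 in the Luc libraries and 0.107 and 0.105 in the Tox4 libraries. Pou2f3, a factor of tuft cells, was at 2.84 and 2.82 against 1.79 and 1.44 FPKM, and its log2 fold change of -0.55 lay just outside the threshold (SE 0.11, adjusted p = 0.0505).

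Zic2 and Zic5 are neighbours on chromosome 14 that are transcribed away from each other, with their starts 9758 bases apart. Zic2 (ENSMUSG00000061524, 122475435 to 122479852, plus strand) was at 131 and 133 FPKM in Luc replicates 1 and 2 and at 139 and 138 FPKM in Tox4 replicates 1 and 2. Both Tox4 libraries lay above both Luc libraries by a margin larger than either gap between replicates, yet the log2 fold change of 0.07 did not pass (limma adjusted p = 0.280, SE 0.03, 95% interval -0.01 to 0.15). Zic5 (ENSMUSG00000041703, 122456795 to 122465677, minus strand) was at 25.3 and 27.1 FPKM with Luc esiRNA and at 29.4 and 27.0 FPKM with Tox4 esiRNA. The groups overlapped, since Tox4 replicate 2 lay below Luc replicate 2. Zic5 had a log2 fold change of 0.10 (limma adjusted p = 0.370, SE 0.06, 95% interval -0.04 to 0.24), and of 0.04 without Tox4 replicate 1.

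Per length, Zic2 was the more abundant of the neighbours. The ratio of Zic2 to Zic5 within a library was 5.17 and 4.92 in the Luc libraries and 4.74 and 5.11 in the Tox4 libraries, with the groups overlapping.

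**Figure D3:**
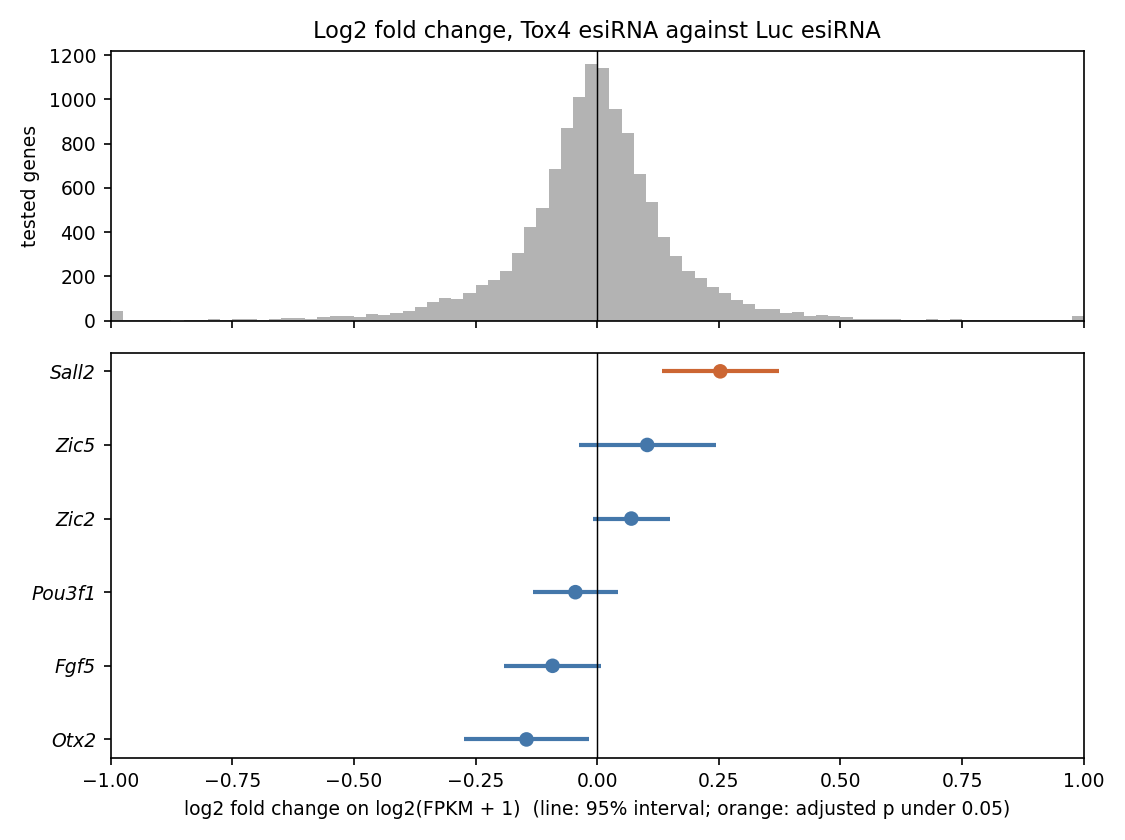
Log2 fold changes on log2(FPKM + 1), Tox4 esiRNA against Luc esiRNA (horizontal axis). The upper panel counts all 12403 tested genes, with values beyond the axis put in the end bars, and the lower panel gives the 6 genes with their 95% intervals, which include 0 for Fgf5, Pou3f1, Zic2 and Zic5; Sall2 (orange) has an adjusted p under 0.05.

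By level per length the 6 genes stood between the 79.9th and the 97.3th percentile of all genes of the table. In the Luc libraries the order by mean FPKM was Zic2 (132), Pou3f1 (65.4), Fgf5 (41.2), Otx2 (33.3), Zic5 (26.2) and Sall2 (25.9). The values of Zic5 and Sall2 overlapped, and each other pair of neighbours in the order was apart in both libraries. In the Tox4 libraries the first 3 kept their places at 139, 63.3 and 38.6 FPKM, and Sall2 (31.1) took place 4, ahead of Otx2 (30.0) and Zic5 (28.2). There the values of each pair of neighbours did not overlap, but by little for the lower Sall2 value of 30.55 FPKM over the higher Otx2 value of 30.39 FPKM, and for the lower Otx2 value of 29.66 FPKM over the higher Zic5 value of 29.40 FPKM. The ratio of Sall2 to Otx2 within a library was 0.717 and 0.844 with Luc esiRNA and 1.01 and 1.07 with Tox4 esiRNA. This pair was picked after the values were seen.

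**Figure D4:**
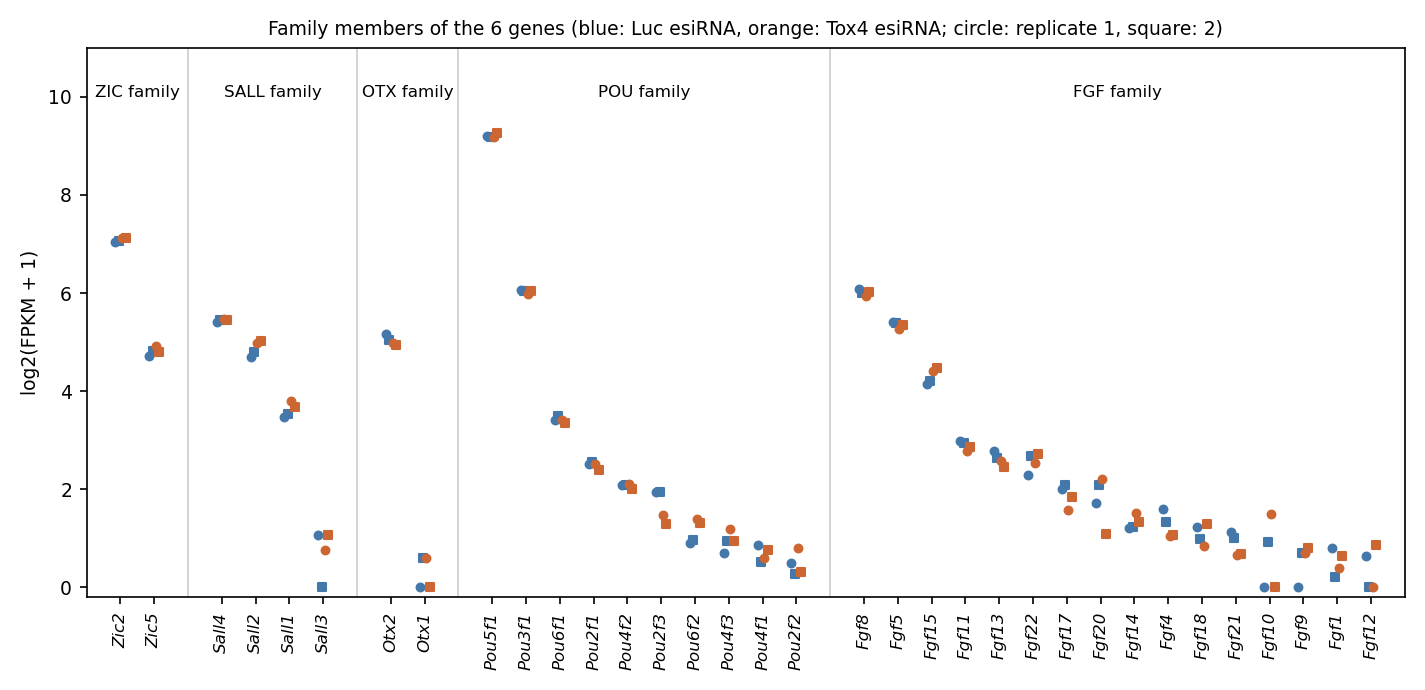
Level as log2(FPKM + 1) (vertical axis) of measured members of the ZIC, SALL, OTX, POU and FGF families in the 4 libraries; each point is 1 library. Otx2 at 29.7 to 34.8 FPKM stands over Otx1 at up to 0.518 FPKM, and Pou3f1 is second to Pou5f1 among POU genes.

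The 6 genes rested on 1110 to 7325 reads per library, and their standard errors were 0.03 to 0.06 on the log2 scale. For Fgf5, Pou3f1 and Zic2 the replicates of each group differed by no more than 1.32 times the standard deviation that read counting alone gives. Replicates differed by more for Otx2 in the Luc libraries (0.13 on the log2 FPKM scale, against a counting SD of 0.05), for Sall2 in the Luc libraries (0.10 against 0.04) and for Zic5 in both groups (0.10 and 0.12, each against 0.05). Among the 559 genes called, the smallest change was 0.16 on the log2(FPKM + 1) scale, and the changes of Fgf5, Otx2, Pou3f1, Zic2 and Zic5 were all smaller than that.

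Other genes of the primed epiblast moved in both directions. Of 16 tested genes of a list that leaves out the 6 described here, 2 rose, 2 fell and 12 did not pass, with a median of 0.03. Of all tested genes, 1.89% were called higher and 2.62% lower. The ephrin receptor gene Epha4 (0.39) and Sox2 (0.24) rose, and the tight junction gene Cldn6 (-0.60) and Tdgf1 (-0.28), the co-receptor gene of Nodal, fell. Dnmt3b, the DNA methyltransferase gene switched on together with Fgf5 and Otx2, was at 122 and 125 against 113 and 112 FPKM (-0.13, limma adjusted p = 0.0825). Of 6 tested core pluripotency genes, 1 rose (Sox2) and 1 fell (Tdgf1), and both stand in the primed list too. The call of Cldn6 held whichever library was left out, whereas Epha4 lost it without any 1 of the 4 (adjusted p up to 0.179), Sox2 without either Luc library or Tox4 replicate 1 (up to 0.179) and Tdgf1 without either Luc library (up to 0.141).

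Naive genes, which are shut down on entry into the primed state, gave 1 call. Of 17 listed, 10 were measured and 5 tested, of which 1 rose and 0 fell, with a median of -0.23. Among all tested genes the shares were 1.89% higher and 2.62% lower. Gbx2 rose from 6.22 and 6.23 FPKM to 9.14 and 9.64 FPKM (0.52), a gene that also marks the hindbrain border, where its domain meets that of Otx2. Its call was lost without either Luc library (limma adjusted p up to 0.0957). Klf5 was at 7.62 and 8.03 against 6.59 and 5.92 FPKM and did not pass (-0.28, limma adjusted p = 0.0890).

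In a list of neural plate and early brain genes, tissues where Otx2, Pou3f1, Zic2 and Zic5 are used again, 6 of 10 tested genes rose, 0 fell and 4 did not pass, with a median of 0.30. En1 reached the filter of 1 FPKM only through the Tox4 libraries, where it was high, and without it 5 of 9 rose, with a median of 0.26, against 1.89% of all tested genes called higher. Sox1 rose by 1.12 on the log2 scale, En1 by 1.05, Fabp7 by 0.83 and Gbx2 by 0.52, the other 2 being Ncam1 (0.34) and Sox2 (0.24). Sox1, the early neural plate factor, was at 5.28 and 5.57 FPKM with Luc esiRNA and at 12.3 and 13.7 FPKM with Tox4 esiRNA, and En1, a gene of the midbrain and hindbrain, was low at 0.415 and 0.473 against 1.82 and 2.16 FPKM. Of the forebrain genes of the list, Rax did not pass (0.20, limma adjusted p = 0.437), and Pax6 and Lhx2 were too low to be tested. The others that did not pass were Cdh2 (0.26), Nes (-0.06) and Sox3 (-0.07). The calls of Sox1 and Fabp7 held whichever library was left out, while En1 and Gbx2 lost theirs without either Luc library (limma adjusted p up to 0.0914 and 0.0957), as did Ncam1 and Sox2, which lost theirs without Tox4 replicate 1 too (up to 0.148 and 0.179). Several of these neural genes were known from earlier results of these data to be higher. Of 8 tested genes of the primitive streak and endoderm, 1 rose (Cer1, 0.35) and 1 fell (T, the Brachyury gene, -1.06). The remaining 6 did not pass, and the median was -0.12. The shares of all tested genes were 1.89% higher and 2.62% lower. T kept its call in each of these fits, and Cer1 lost it without any 1 of the 4 (limma adjusted p up to 0.197). Of the lists of other cell types, 0 of 5 tested fibroblast genes, 0 of 1 extraembryonic endoderm gene and 0 of 3 trophoblast genes passed, and the most abundant were Fn1 (-0.02), Dab2 (-0.01) and Krt7 (-0.15).

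**Figure D5:**
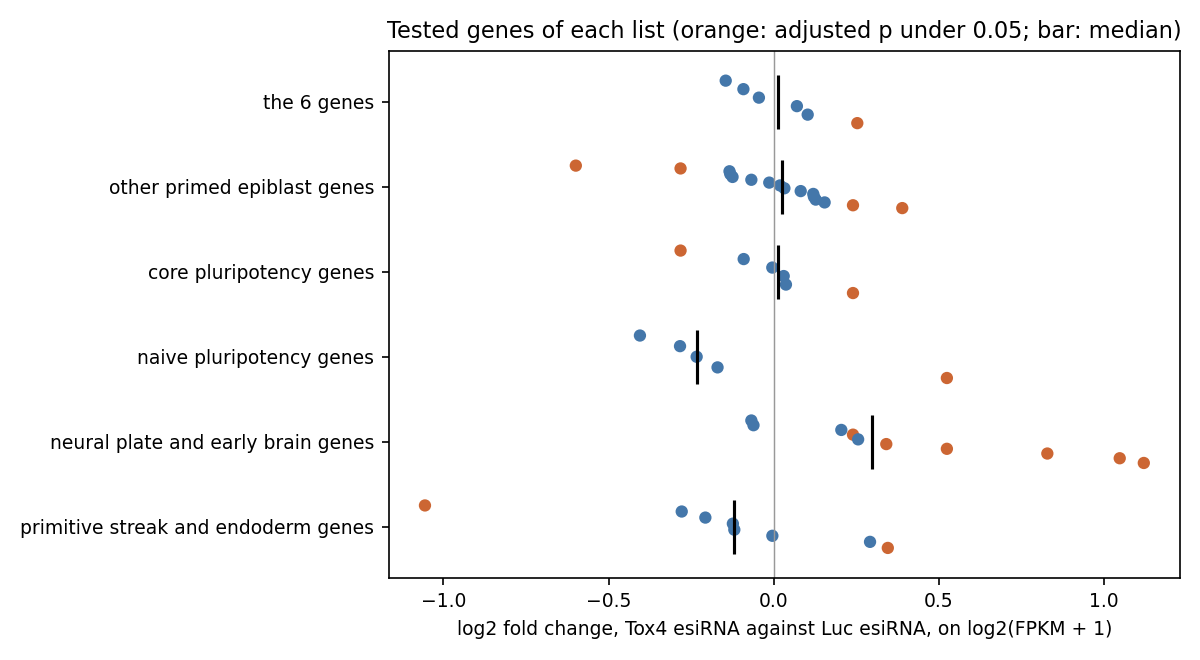
Log2 fold changes on log2(FPKM + 1), Tox4 esiRNA against Luc esiRNA (horizontal axis), of the tested genes of 6 lists, 1 point per gene, with a bar at each median. The 6 genes lie between -0.15 and 0.25, whereas the neural plate and early brain list reaches 1.12 and the streak and endoderm list -1.06.

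The genes whose pattern over the 4 libraries was nearest to each of the 6 were found as the smallest Euclidean distance between centred log2(FPKM + 1) values, among 8615 other genes whose mean level reached 5 FPKM. Nearest to Sall2 were Snx24 and Ano8, at distances of 0.014 and 0.023. Nearest to Otx2 were Tube1 and Arhgdig, to Fgf5 Pdhx and Ppie, to Pou3f1 Atpaf2 and Cdt1, to Zic2 Nsf and Armcx2, and to Zic5 Camsap2 and Golgb1. With 4 libraries this likeness separates little: 204 genes lay within 0.1 of Sall2, 611 of Otx2, 941 of Zic5, 2078 of Fgf5, 2780 of Zic2 and 3099 of Pou3f1. Among the 6 themselves the closest pair was Fgf5 with Pou3f1 (0.05), followed by Zic2 with Zic5 (0.09), and the most distant was Otx2 with Sall2 (0.43).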

How the data were processed

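Polyadenylated RNA of 2 Luc esiRNA and 2 Tox4 esiRNA libraries was analysed. The authors deposited FPKM values for 15429 genes in 1 table and again, unchanged, in 4 files of 1 library each. Per the submitters' processing notes, the tools were CASAVA 1.8 and STAR 2.3.0e and the build was GRCm38.p1. How reads were counted, with which annotation and whether by strand, is not given in the sources used here.

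The 12403 genes whose mean reached 1 FPKM were tested on log2(FPKM + 1), two-sided, in R 4.3.3 with limma 3.58.1, an intensity trend, no covariate and Benjamini-Hochberg adjustment at a threshold of 0.05. The fit had 2 residual and 4.01 prior degrees of freedom. A fold change on the log2(FPKM + 1) scale understates changes of low genes. Whole reads were worked back as the smallest whole gene length that made all 4 values whole to within 2e-06 reads, which held for 100% of values. For the 6 genes a doubled length would exceed the exons annotated. Replicates differed by more than sampling noise (chi-square per degree of freedom 1.62 and 1.92). The scripts were tested on simulated data. In these, with an assumed spread between libraries, limma called 5.2% of 1.2-fold and 65.2% of 1.5-fold changes. Not passing is therefore no sign that a gene was unchanged.

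The members, gene lists and tests were chosen with earlier results of these data known. Named were the 6 genes, Tox4, measured relatives, up to 4 called genes of each other list or, where none was called, its 2 most abundant, and the 2 genes nearest in pattern to each member. Beyond this rule, Dnmt3b, Klf5, Ncam1, Nes, Cdh2, Sox2 and Sox3 in the neural list, and the genes around Tox4 were chosen with their values known. A gene of the lists is not reported here. The alternatives were pseudocounts of 0.1 and 0.5, other filters, median ratio scaling, no intensity trend, limma-voom on the reads, the replicate number as a block, and each library left out. Coordinates, exon overlaps and symbols came from GENCODE on GRCm38, where 98.7% of identifiers were found. Promoter sequences came from RefSeq on GRCm38.p6 and matched 4 of the 6 genes.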

Additional observations from a re-analysis of the deposited data

How the results depend on the processing

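All 6 genes kept the direction of their fold change under each of the 12 alternatives, and the 5 that did not pass stayed on that side, with fold changes of -0.13 to -0.06 for Fgf5, -0.21 to -0.08 for Otx2, -0.07 to -0.02 for Pou3f1, 0.06 to 0.08 for Zic2 and 0.04 to 0.16 for Zic5. Sall2 passed under 5 alternatives and not under 7. It had a log2 fold change of 0.26 with a pseudocount of 0.1 (limma adjusted p = 0.0504), 0.25 with low genes kept (0.0734), 0.25 with no intensity trend (0.120) and 0.20 to 0.30 with 1 library left out (0.0682 to 0.228). In limma-voom it was 0.26 (adjusted p = 0.00108), where 11.8% of genes were called. The number of genes higher was 146 with low genes kept, 365 with a filter at 5 FPKM, 33 with no intensity trend, 740 in limma-voom and 27 to 176 with 1 library left out. The number lower was 202 with low genes kept, 45 with no intensity trend, 728 in limma-voom and 34 to 296 with 1 library left out. A fit without 1 library has a single residual degree of freedom and assumes that the lone library varies like those of the other group. The other causes were not tested.

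The labels give the groups the same replicate numbers but tie nothing else to them, and the deviations of same-numbered libraries had a correlation across genes of -0.0363. With the replicate block, 222 genes were higher and 334 lower, Sall2 was at 0.25 (limma adjusted p = 0.0398), and no call among the 6 genes changed.

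Counting alone gives the group differences of the 6 genes an SD of 0.02 to 0.04 on the log2 scale. Their standard errors of 0.03 to 0.06 were larger for each gene. They were 0.032 against a counting SD of 0.019 for Zic2, 0.041 against 0.037 for Fgf5 and 0.058 against 0.034 for Zic5. How far read depth limited the precision was not tested. With 2 libraries a group, the 95% intervals reached 0.08 to 0.14 to each side on the log2 scale.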
